A study of Mus musculus with 3 samples.

Results

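The genes described here were the developmental transcription factors of the homeobox, paired box, POU, Sox, forkhead (Fox), Gata and T-box families, and the question was where in them DNA carrying 5-hydroxymethylcytosine (5hmC) was recovered from adult mouse cerebellum. Members were all protein-coding genes of GENCODE M39 whose symbol began with Hoxa, Hoxb, Hoxc, Hoxd, Lhx, Pax, Nkx, Sox, Irx, Dlx, Gata, Tbx, Pitx, Otx or Gbx and a digit, with Fox, a letter and a number, or with Pou, together with En1, En2 and the genes of 1 further homeobox family, which gave 198 of 21757 protein-coding genes. Cerebellum DNA of an 8-week-old female C57Bl6Cr mouse was sonicated to a mean of 362 bp, immunoprecipitated with an antibody against 5hmC in 3 reactions of 1 µg (hydroxymethylated DNA immunoprecipitation, hMeDIP) and sequenced without amplification on nanopore flow cells, so that each read carries its own calls of 5hmC, 5-methylcytosine (5mC) or unmodified C at CpG sites. The antibody of replicate 1 was whole serum, that of the other 2 replicates was IgG-purified, and the library names give 1 animal for all 3, so the spread between replicates is technical and does not cover differences between mice. Antibody and replicate cannot be told apart for replicate 1. The authors called peaks in each replicate against untreated DNA, which gave 497, 8546 and 5166 peaks in replicates 1, 2 and 3. Peaks that overlapped between replicates were merged into 13342 regions, and a region was given to a gene when its midpoint lay in the gene body or up to 1 kb upstream of it. The 198 genes held 88 of these regions, and 10641 regions lay in other protein-coding genes. The labelled tissue could not be checked against marker genes, since DNA and not RNA was sequenced.

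5hmC is made from 5mC by the TET dioxygenases, and it is abundant in neurons, where it lies mostly along the bodies of genes. Genes of the Hox, Sox, Fox and related families set the identity of tissues in the embryo, and many of them are short genes with CpG-rich starts that are held silent by Polycomb complexes in cells that do not use them. In the cerebellum, En1, En2, Gbx2 and Otx2 place the midbrain-hindbrain boundary, Pax6 marks granule cell precursors, Lhx1 and Lhx5 act in Purkinje cells, and the Foxp genes are found in several neuron types.

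The results below turn on a few stretches of these genes, and 4 windows of 300 bp are shown, chosen after their values were seen. They are the window with most base-calls in the coding exon of Foxo3, which held the highest fold enrichment of any peak in these genes, a window of a Foxn3 intron with peaks in 2 replicates and calls in all 3, and windows of coding exons of Foxk1, with the highest 5hmC share of the 6 coding exon regions, and Lhx1, with no 5hmC call. They are given on the forward strand of GRCm39, 5′ to 3′, with CpG sites in capitals. Foxo3, Foxn3 and Lhx1 are transcribed from the other strand.
Foxo3, chr10:42073506-42073805, coding exon 3: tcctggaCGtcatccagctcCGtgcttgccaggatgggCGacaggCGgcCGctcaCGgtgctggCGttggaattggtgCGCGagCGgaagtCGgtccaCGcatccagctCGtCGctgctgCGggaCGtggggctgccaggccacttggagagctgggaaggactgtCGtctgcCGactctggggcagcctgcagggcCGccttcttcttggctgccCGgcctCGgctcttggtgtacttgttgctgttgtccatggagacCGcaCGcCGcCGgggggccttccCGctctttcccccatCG
Foxn3, chr12:99184894-99185193, intron 4: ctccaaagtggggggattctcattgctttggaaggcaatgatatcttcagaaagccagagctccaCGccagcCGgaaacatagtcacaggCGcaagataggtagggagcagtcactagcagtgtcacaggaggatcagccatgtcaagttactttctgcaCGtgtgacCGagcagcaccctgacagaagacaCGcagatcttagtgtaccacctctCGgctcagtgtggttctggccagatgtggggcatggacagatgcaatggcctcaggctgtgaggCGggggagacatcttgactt
Foxk1, chr5:142420802-142421101, coding exon 2 and flanking intron: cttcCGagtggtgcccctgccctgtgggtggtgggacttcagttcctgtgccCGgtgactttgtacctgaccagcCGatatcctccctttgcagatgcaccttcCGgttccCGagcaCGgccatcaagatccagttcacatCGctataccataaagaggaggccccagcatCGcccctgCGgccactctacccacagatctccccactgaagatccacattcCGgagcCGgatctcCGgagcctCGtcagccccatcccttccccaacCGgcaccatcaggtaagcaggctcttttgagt
Lhx1, chr11:84410545-84410844, coding exon 5 and flanking intron: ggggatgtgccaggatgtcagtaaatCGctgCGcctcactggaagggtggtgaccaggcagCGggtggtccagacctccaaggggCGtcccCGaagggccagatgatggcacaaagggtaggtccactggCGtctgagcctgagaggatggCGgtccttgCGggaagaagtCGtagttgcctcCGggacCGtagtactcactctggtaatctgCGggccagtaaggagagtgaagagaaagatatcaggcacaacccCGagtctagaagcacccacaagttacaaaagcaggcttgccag

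The 4 windows differed in CpG density and in the state of their CpG sites. The Foxo3 window held 27 CpG sites, all with a base-call, and 25 of 59 calls in replicate 2 and 4 of 35 in replicate 3 were 5hmC, a share of 42.4% (95% exact binomial interval 29.6 to 55.9) and 11.4% (3.20 to 26.7). All 5 calls of replicate 1 in it were 5mC. Over the 3 replicates, 19 of the 27 sites had a 5hmC call. The Foxn3 window held 8 CpG sites, with 5hmC in 5 of 8, 3 of 9 and 5 of 16 calls in replicates 1, 2 and 3, and 7 of its 8 sites had a 5hmC call. The Foxk1 window held 14 CpG sites with calls in replicate 3 only, of which 14 of 22 were 5hmC (63.6%, interval 40.7 to 82.8) and the other 8 were 5mC. In the Lhx1 window 8 of 13 CpG sites had a call, and all 8 calls, from replicate 3, were unmodified C, which allows a 5hmC share of up to 36.9%. Intervals in the text cover counting error only, since the calls along 1 read are not independent.

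Most of these regulators held no region. A region was found in 19 of 198 members (9.60%), against 20% of all protein-coding genes. Replicate 1 had peaks in the regions of 4 members (2.02%, against 1.75% of all genes), replicate 2 in 17 (8.59%, against 15.2%) and replicate 3 in 9 (4.55%, against 11.1%). A region with peaks of at least 2 replicates was found in 4 members, Foxn2, Foxn3, Foxo3 and Pou2f2 (2.02%, against 2.54%). Regions within 1 kb of the gene start were found in 3 members, Foxn2, Pou2af1 and Pou6f1 (1.52%, against 1.78%). The share for the members as a whole lay below that of all genes, and replicate 1 did not follow this order.

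The members are short, and gene length moved with the share of genes holding a region. Their median length was 6.70 kb, against 19.3 kb for the other protein-coding genes, and 61.1% of them were under 10 kb, against 32.3% of all genes. Of the 121 members under 10 kb, 2 held a region, Lhx1 and Tbx6 (1.65%, against 6.44% of all genes of this length). Of the 51 members of 10 to 50 kb, 4 did, Foxj2, Foxo6, Pou2af1 and Pou6f1 (7.84%, against 17.3%). Of the 26 members of 50 kb or more, 13 did (50%, against 43.1%). Per length, members under 10 kb held 2.94 regions per Mb and other genes of that class 12.2. Members of 10 to 50 kb held 4.23 and other genes 10.3, whereas members of 50 kb or more held 15.3 and other genes 9.72. The members thus lay below the other genes in both shorter classes. In the longest class, the 24 members other than Foxn3 and Foxo3 held 30 regions, or 6.24 per Mb. This is a description only, since these genes were left out for holding the most regions, while the other genes kept their densest genes.

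**Figure D1:**
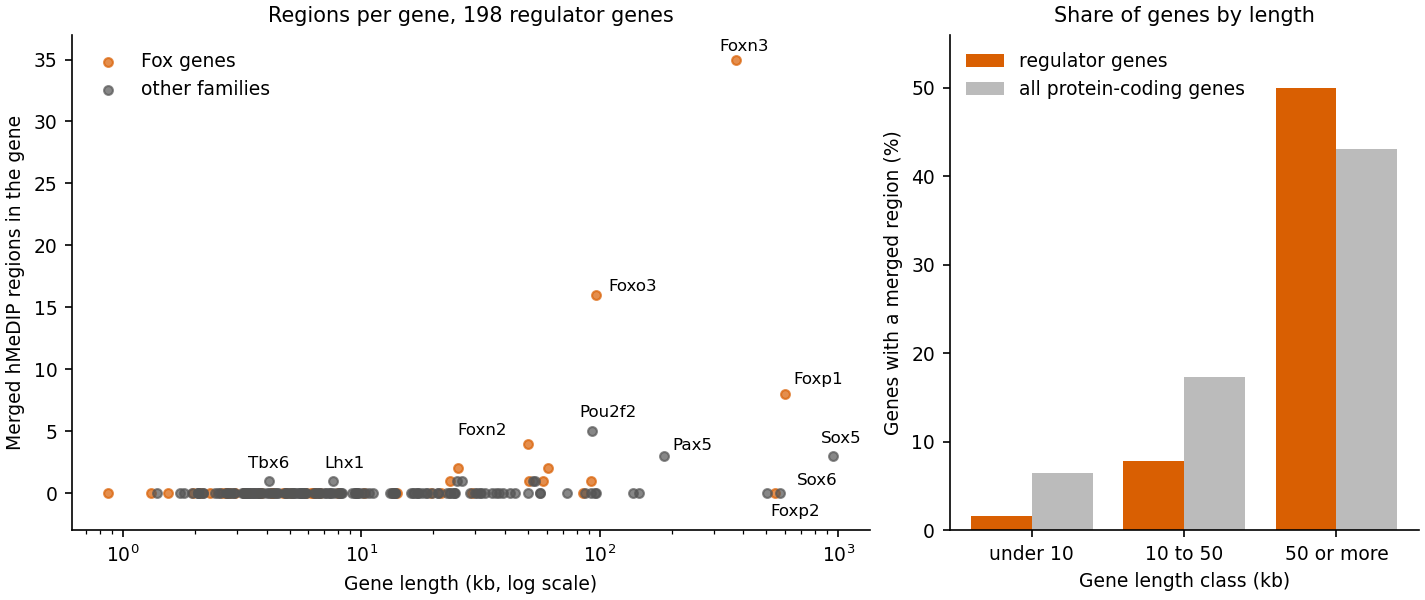
Left, the number of merged hMeDIP regions of each of the 198 regulator genes (points, Fox genes in orange) against gene length in kb on a log axis. Right, the percentage of genes with a region in 3 length classes, for the regulator genes (orange bars) and all protein-coding genes (grey bars). Foxn3 with 35 regions and Foxo3 with 16 stand above all other members, and the members fall below all genes in both classes under 50 kb.

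The Hox clusters, which pattern the body axis, held no region in any of the 39 genes (11 Hoxa, 10 Hoxb, 9 Hoxc and 9 Hoxd). Their median length was 3.54 kb and 32 of them were under 10 kb, a length at which 6.44% of all protein-coding genes held a region. None was found in the 6 Gata genes either, nor in the 14 Nkx, 6 Irx, 6 Dlx, 3 Pitx, 2 Otx, 2 Gbx, 2 En genes and the 6 genes of the further homeobox family. Among the 8 Lhx genes, Lhx1 and Lhx4 held 1 each. One of 9 Pax genes held regions (Pax5, with 3), as did 1 of 19 Sox genes (Sox5, with 3), 2 of 13 T-box genes (Tbx5 and Tbx6, with 1 each) and 3 of 18 genes whose symbol begins with Pou (Pou2f2 with 5, Pou6f1 and Pou2af1 with 1 each). Pou2af1 encodes a coactivator that binds POU factors and has no POU domain itself. Of the 45 Fox genes 10 held a region (22.2%, against 20% of all protein-coding genes). These 10 held 71 of the 88 regions (80.7%), of which 51 lay in Foxn3 and Foxo3. A gene without a region is one without a called peak at this depth, and does not show that 5hmC was absent from it.

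Length alone did not separate long members with regions from those without. Of the 13 members of 50 kb or more with no region, the longest were Sox6 (569 kb) and Foxp2 (541 kb). Sox6 and Sox5 encode related SoxD factors, and Sox5, at 954 kb the longest member, held 3 regions, or 0.314 per 100 kb. Foxp2 and Foxp1 encode related repressors, and Foxp1 (597 kb) held 8 regions, or 1.34 per 100 kb. Others without a region were Tbx15, Pou2f1, Pax7, Pax3, Pax2, Pou2f3, Foxo1, Gata4, Pax8 and Tbx20. Over all 5252 protein-coding genes of this length the median was 0 regions per 100 kb, and the 90th percentile was 3.41.

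Foxn3 and Foxo3 together held 51 of the 88 regions (58.0%). Foxn3 (chr12:99156337-99530218), which encodes a forkhead repressor first described as a checkpoint suppressor, held 35 regions in 374 kb, or 9.34 per 100 kb, above 98.3% of the genes of 50 kb or more. Foxo3 (chr10:42057837-42154007), a forkhead activator restrained by insulin and growth factor signalling through AKT, held 16 in 96.2 kb, or 16.5 per 100 kb, above 99.9%. The regions covered 18210 bp of Foxn3 (4.87% of the gene) and 9318 bp of Foxo3 (9.69%). Peaks of replicates 1, 2 and 3 lay in 2, 18 and 19 of the Foxn3 regions, and in 2, 11 and 5 of the Foxo3 regions. The replicates with more peaks over the genome thus had more of them in these genes too, except that replicate 3 had more than replicate 2 in Foxn3 by 1.

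In both genes the regions lay far from the annotated gene start. The canonical transcript of Foxn3 starts farther in, between the regions at 162 and 176 kb, so distances in Foxn3 depend on the start used. The midpoint of the nearest region lay 5.96 kb from the start of Foxn3 and 11.4 kb from that of Foxo3. In Foxn3, 6 regions lay in the first part when the gene is divided into 3 equal lengths, 9 in the middle part and 20 in the last. Intron 4 of its canonical transcript held 14 regions, introns 2 and 3 held 5 each, intron 5 held 1, and coding exon 6 and the part of that exon outside the coding sequence held 1 each. The remaining 8 lay in the gene body upstream of the canonical transcript. In Foxo3, 13 of 16 regions lay in intron 2, with 1 each in intron 3, coding exon 3 and the non-coding exon 4. Among Foxp1 regions, 4 of 8 lay in the last part of the gene and 1 in the first.

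**Figure D2:**
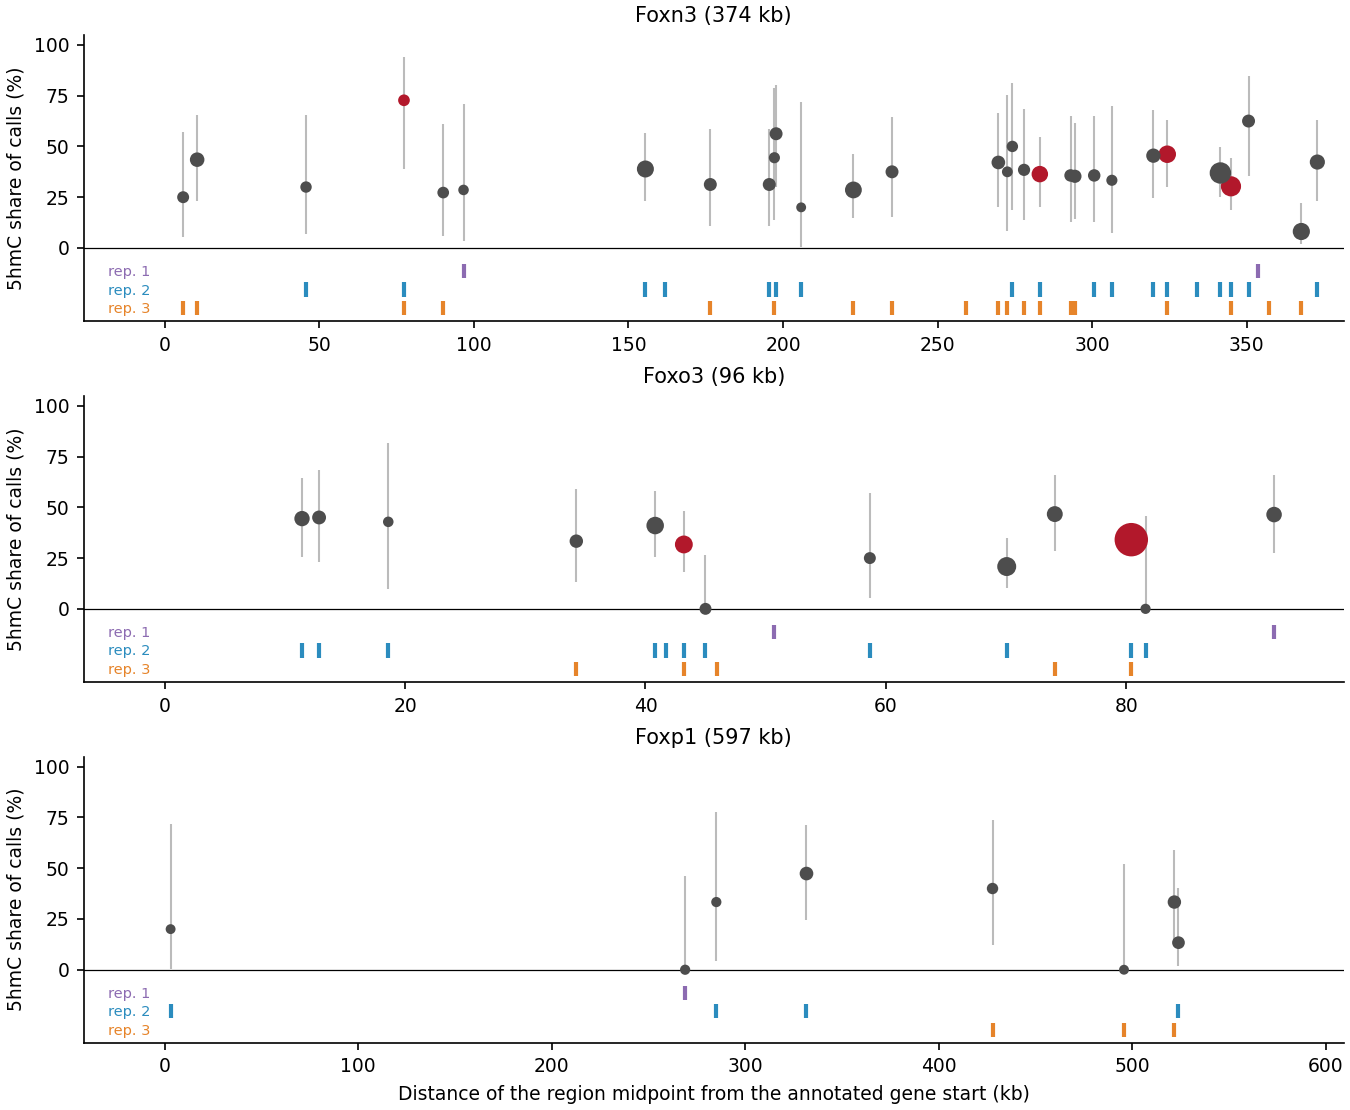
Merged regions along Foxn3, Foxo3 and Foxp1, by distance of the midpoint from the annotated gene start in kb. Points give the 5hmC share of base-calls pooled over the 3 replicates for regions with 5 or more calls (area grows with the number of calls, grey lines are 95% exact binomial intervals, red marks regions with peaks in 2 replicates), and ticks below mark the replicates in which a peak was called. In these genes no region with peaks in 2 replicates lay within 40 kb of the start, and the 35 Foxn3 regions were most numerous in the last part of the gene.

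Few regions were found in more than 1 replicate. Peaks of 2 replicates overlapped in 9 of 88 member regions (10.2%, against 6.06% of regions in other genes), and none held a peak of all 3. They were 4 regions of Foxn3, 2 of Foxo3, 2 of Foxn2 and 1 of Pou2f2. The Foxn3 regions were chr12:99184894-99185772, chr12:99205610-99206290 and chr12:99246603-99247720 in intron 4 and chr12:99452617-99453040 nearer to the start. In the first of these, 3 of 15 calls in replicate 2 and 9 of 29 in replicate 3 were 5hmC. In the second, 7 of 18 and 11 of 21 were. In the third, 11 of 27 in replicate 2 were, and replicate 3 had no call. In the last, 6 of 8 and 2 of 3 were. The Foxo3 regions were chr10:42110144-42111486 in intron 2 (5hmC in 6 of 10 and 7 of 31 calls in replicates 2 and 3) and chr10:42073109-42074066, which takes in the coding exon whose sequence is given above.

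The Foxo3 coding exon region had the highest fold enrichment among the peaks of these genes, 6.62 in replicate 2, with 3.77 in replicate 3 and no peak in replicate 1. It held 59 CpG sites in 958 bp and the most base-calls of any member region. 5hmC made up 2 of 11, 39 of 102 and 21 of 69 calls in replicates 1, 2 and 3, or 34.1% of the 182 calls pooled (27.2 to 41.4). The next highest fold enrichments were 6.47 and 5.81 in Foxn3 (chr12:99374496-99374988 in replicate 2 and chr12:99294769-99295172 in replicate 3), 6.25 in Foxo3 intron 2 (chr10:42119527-42119998 in replicate 3) and 5.74 in Foxn3. All peaks of these genes lay between 2.77 and 6.62.

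5hmC was read directly within these regions. The base-calls numbered 208, 760 and 624 in replicates 1, 2 and 3, at 189, 529 and 464 CpG sites of the forward strand. Most sites had 1 call (71.0%) and none had more than 4, so that single sites are not compared. In Foxn3, 5hmC made up 37.6% of the 101 calls of replicate 1 (28.2 to 47.8), 38.3% of the 264 of replicate 2 (32.4 to 44.4) and 35.0% of the 266 of replicate 3 (29.2 to 41.0), a mean of 36.9% ± 1.75 (SD, n = 3). The shares of the 3 replicates lay close together. In replicate 1, made with the other antibody, only 2 Foxn3 regions held a peak, with 5hmC in 0 of 3 and 2 of 7 calls. The other Foxn3 calls of replicate 1 lay in regions without a peak of its own. In Foxo3 the shares were 32.5% of 40 calls (18.6 to 49.1), 37.3% of 271 (31.5 to 43.3) and 29.5% of 166 (22.7 to 37.1), a mean of 33.1% ± 3.91 (SD, n = 3). Regions of the other protein-coding genes held 30.5%, 32.3% and 31.7% 5hmC. Counting all calls in its regions, with or without a peak of that replicate, Foxn3 lay above these in 3 of 3 replicates. The differences were 7.11, 5.96 and 3.31 percentage points (two-sided exact sign-flip permutation test, p = 0.25, the smallest that 3 replicates allow). The value for other genes lay inside the counting interval of Foxn3 in replicates 1 and 3 and just below it in replicate 2. Foxo3 lay above them in replicates 1 and 2 and below in replicate 3 (exact p = 0.75).

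Foxn2, Foxp1 and Pou2f2 had fewer calls and wider spread. Foxn2 (chr17:88747825-88797961), a forkhead factor related to Foxn3, had 5hmC in 35.5% of 31 calls (19.2 to 54.6), 51.8% of 56 (38.0 to 65.3) and 21.4% of 42 (10.3 to 36.8). Replicates 2 and 3, made with the same antibody, lay at its extremes with intervals that do not overlap. Of its 4 regions 1 had no call, and the others differed in 5hmC. The region in intron 1, at chr17:88758964-88759350, had 5hmC in 6 of 9 and 2 of 7 calls in replicates 2 and 3. Upstream of the start, at chr17:88746802-88747199, 0 of 2, 12 of 15 and 5 of 7 calls in replicates 1, 2 and 3 were 5hmC, or 70.8% of 24 calls pooled, whereas coding exon 6, at chr17:88793927-88794450, had 11 of 29, 11 of 32 and 2 of 28. The exon region held 32 CpG sites, and its peaks were those of replicates 1 and 2.

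Foxp1 (chr6:98902299-99499685), a repressor that acts in neurons and lymphocytes, had 5hmC in 8.33% of 12 calls (0.211 to 38.5), 37.1% of 35 (21.5 to 55.1) and 27.0% of 37 (13.8 to 44.1). 5mC was the leading state in its regions in every replicate, at 91.7%, 60.0% and 62.2%, against 40.6%, 39.9% and 41.0% in regions of the other genes. All 8 of its regions had a peak in 1 replicate. Pou2f2 (chr7:24786769-24879151), the B cell factor Oct-2, had 33.3% of 3 calls, 42.9% of 14 and 31.7% of 41. Like Foxn3, Pou2f2 lay above the regions of other genes in 3 of 3 replicates, by 2.82, 10.6 and 0.0549 percentage points. Its p was the same (two-sided exact sign-flip permutation test, p = 0.25), with 3 calls in replicate 1. Its region with peaks in 2 replicates, chr7:24871344-24871940, had 5hmC in 5 of 7 and 6 of 13 calls in replicates 2 and 3. The intervals of the 3 replicates overlap within each of these 2 genes.

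**Figure D3:**
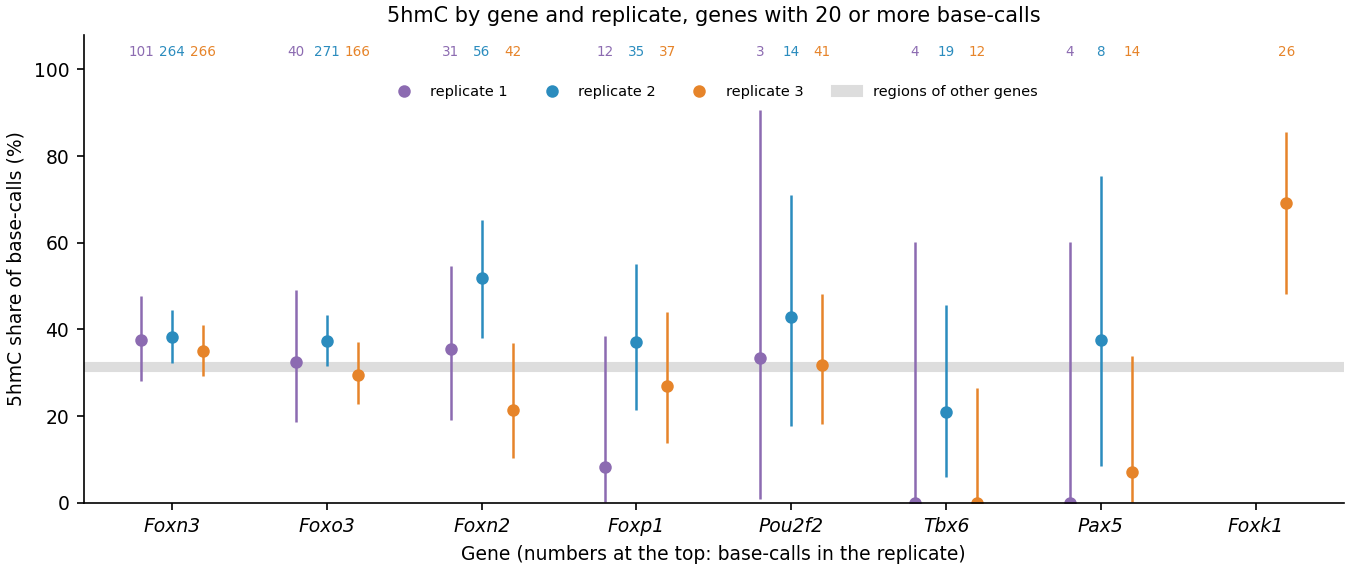
5hmC as a percentage of base-calls in the regions of each of the 8 genes with 20 or more calls, by replicate (points, with 95% exact binomial intervals; numbers at the top are the calls). The grey band spans the 3 replicates of regions in other protein-coding genes, 30.5% to 32.3%. Foxn3 lies above the band in all 3 replicates, Foxk1 lies highest and Tbx6 and Pax5 lowest.

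Foxk1, Pax5 and Tbx6 lay at the ends of the range of shares pooled over the replicates. Foxk1 (chr5:142387240-142447766), a forkhead repressor of autophagy and muscle genes, had 2 regions, both with calls in replicate 3 alone, and 69.2% of its 26 calls were 5hmC (48.2 to 85.7). The other 30.8% were 5mC, with no unmodified C. Most of the calls lay in the coding exon region shown above, where the fold enrichment was 5.46. Each site of the window shown had 1 or 2 calls, so these calls came from few reads. Pax5 (chr4:44524757-44710487), which acts at the midbrain-hindbrain boundary and in B cells, had no 5hmC in 4 calls, 37.5% of 8 and 7.14% of 14 in replicates 1, 2 and 3. Tbx6 (chr7:126380655-126384732), a factor of the paraxial mesoderm, had no 5hmC in 4 calls, 21.1% of 19 and none of 12, and 11.4% over all 35 calls (3.20 to 26.7). Its region lies in intron 3.

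The other members had fewer than 20 calls, and values are given as counts of 5hmC calls among all calls. Sox5 had 3 of 19, Foxj2 4 of 18, Tbx5 7 of 17, Pou6f1 3 of 16, Foxk2 4 of 13, Foxo6 5 of 12, Lhx4 4 of 12, Foxj3 1 of 5 and Pou2af1 1 of 5. The single region of Foxp4 had 1 call, which was not 5hmC, and that of Lhx1 had 8, as given above. The Lhx1 peak was called in replicate 2, which had no forward-strand call there, and it overlaps the antisense gene Lhx1os. At the midpoints of 10 of the 88 regions a gene other than the member was annotated as well. In all, 11 of the 87 regions with a call had no 5hmC call, and 1 region, in Foxn2, had no call.

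Over single regions with 20 or more pooled calls, the share of 5hmC in 23 member regions ran from 8.11% to 70.8% with a median of 41.0%. The lowest was coding exon 6 of Foxn3 (chr12:99162429-99162730), with 1 of 14, 1 of 11 and 1 of 12 calls in the 3 replicates, although the gene as a whole lay above the regions of other genes. The highest was the region upstream of Foxn2. In 2256 regions of other genes with as many calls the median was 31.6%, with quartiles of 22.0% and 41.1%. The 23 member regions lay in 6 genes, and 18 of them in Foxn3 and Foxo3, so that their median describes mainly these genes.

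By place, 60 of the 88 regions lay in introns, 16 in the gene body outside the canonical transcript, 6 in coding exons, 4 in exons outside the coding sequence and 2 upstream of a gene. Coding exon regions were the most CpG-rich, with a median of 4.43 CpG sites per 100 bp against 1.98 in introns. Their 5hmC share was 25.9%, 34.7% and 27.9% in the 3 replicates (mean 29.5% ± 4.59, SD, n = 3). Intron regions had 30.5%, 36.6% and 30.5% (32.5% ± 3.51). The values of coding exons lay below those of introns in every replicate, by 4.55, 1.92 and 2.69 percentage points (mean difference -3.05 ± 1.35, SD, n = 3). The intervals of both overlapped in every replicate, and in replicate 2 they were 27.1 to 42.9 in coding exons and 32.1 to 41.2 in introns. The order came from 1 of the 6 regions, coding exon 6 of Foxn3, without which coding exons had 32.5%, 36.7% and 29.7% and lay below introns in replicate 3 alone. 5mC was higher in coding exon regions, at 63.0%, 50.7% and 50.0%, than in intron regions, at 38.1%, 37.5% and 41.8%, and the groups of 3 values did not overlap. Without coding exon 6 of Foxn3 the coding exon values were 52.5%, 47.5% and 46.9%. These differences were not tested.

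In CpG density and GC content, the medians of member regions lay close to those of other genes, which was not tested. The median ratio of observed to expected CpG sites was 0.363 (quartiles 0.297 to 0.431), against 0.312 (0.227 to 0.411). The median was 2.00 CpG sites per 100 bp (quartiles 1.67 to 2.64), against 1.80 (1.32 to 2.48), with a GC content of 48.6% against 49.3%. The regions were thus far less CpG-rich than the starts of the genes. In the 1000 bp around the annotated start the members held a median of 5.6 CpG sites per 100 bp, against 3.5 for other protein-coding genes, and the 19 members with a region had 7.7.

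The regions of the 198 genes were compared with those of the other protein-coding genes in each replicate. 5hmC made up 32.7%, 37.2% and 31.3% of calls in replicates 1, 2 and 3, against 30.5%, 32.3% and 31.7%. The mean difference was 2.24 ± 2.67 percentage points (SD, n = 3), members were higher in 2 of 3 replicates, and the difference did not exceed the spread (exact sign-flip permutation test, two-sided, p = 0.5). With the sites of each replicate's own peaks alone the difference was 4.85 points, and with peaks of a fold enrichment of at least 4 it was 5.62, higher in 3 of 3 replicates in both cases (exact p = 0.25). 5mC made up 45.2%, 40.9% and 42.9%, against 40.6%, 39.9% and 41.0%, higher in 3 of 3 replicates by 2.55 ± 1.84 points (exact p = 0.25). In own peaks it was higher in 2 of 3, by 4.51 points (exact p = 0.5). Unmodified C made up 22.1%, 21.8% and 25.8%, against 28.9%, 27.8% and 27.4%, a difference of -4.79 ± 2.80 points and lower in 3 of 3 (exact p = 0.25). With 3 replicates the test cannot give a p below 0.25, so none of the 6 comparisons made with it, nor those of 5 single genes, could pass 0.05, with or without adjustment. The reads were selected with an antibody against 5hmC, so a share of calls is not the level of 5hmC in the tissue. Because DNA of the whole tissue was used, a share also cannot tell a mark in some cells from a weaker mark in all.

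**Figure D4:**
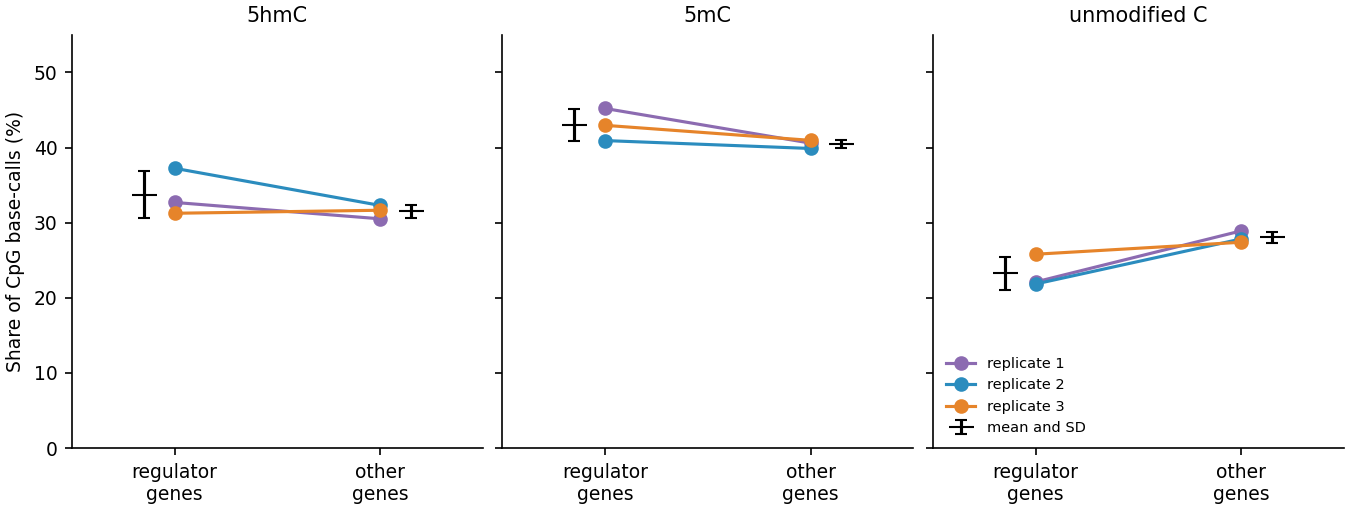
The share of CpG base-calls that were 5hmC, 5mC and unmodified C in regions of the regulator genes and of the other protein-coding genes, with 1 line per replicate and the mean and SD of the 3 replicates beside them in black. Unmodified C was lower and 5mC higher in the regulator genes in all 3 replicates, and 5hmC was higher in 2 of 3.

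The peak density of the members was then set out with and without Foxn3 and Foxo3, and by gene length. Members held 0.844, 7.45 and 5.48 peaks per Mb in the 3 replicates, against 0.372, 6.31 and 3.83 in the other genes (mean difference 1.09 ± 0.593, n = 3, higher in 3 of 3, exact permutation p = 0.25). Without Foxn3 and Foxo3, the members held 0.301, 3.62 and 2.11 peaks per Mb and lay below the other genes in 3 of 3 replicates (difference -1.50). This is a description with no test, since these genes were left out for holding the most regions, so that the density had to fall, while the other genes kept their densest genes. Restricted to genes under 50 kb, they held 0, 2.73 and 1.09, against 0.469, 6.68 and 4.12. Among genes of 50 kb or more they held 1.14, 9.09 and 7.01, against 0.342, 6.20 and 3.75. Without Foxn3 and Foxo3 these long members held 0.416, 3.95 and 2.50, below the other genes in replicates 2 and 3. The 5hmC share without Foxn3 and Foxo3 was 25.4%, 36.0% and 27.6%, below the other genes in 2 of 3 replicates (difference -1.83 points), and 5mC was then 47.8%, 44.4% and 50.0%, above them in 3 of 3 (difference 6.93 points). The order in unmodified C was unchanged by leaving out these genes, at 26.9%, 19.6% and 22.4%.

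Fold enrichment and distance from the start showed no difference that held across replicates. The median fold enrichment of member peaks differed from that of other genes by -0.00747 ± 0.0130 (n = 3, exact permutation p = 1.0). Regions within 1 kb of a gene start had 5hmC in 14.3% of 7 calls, 48.4% of 31 and 71.4% of 7, against 33.3%, 36.8% and 30.8% in regions farther away (exact p = 0.75). They numbered 3, and most of their calls came from the region upstream of Foxn2.

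Of the 24 members listed for their known parts in cerebellar development, 3 held a region, Foxp1, Lhx1 and Foxp4 (12.5%, against 20% of all protein-coding genes). The other 21 had none. They were the boundary genes En1, En2, Gbx2 and Otx2, the Pax genes Pax2, Pax3 and Pax6, the LIM homeobox genes Lhx2, Lhx5 and Lhx9, Irx2 and Irx3, Foxp2, the Sox genes Sox2, Sox4, Sox9, Sox10 and Sox11, and the POU genes Pou3f1, Pou3f2 and Pou3f3. The members with most base-calls, Foxn3, Foxo3 and Foxn2, were not on this list. The list was made with earlier results of these data known, and it does not hold Pax5, which acts at the boundary too and had 3 regions.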

How the data were processed

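Nanopore hMeDIP-seq of cerebellum DNA in 3 replicates was analysed, grouped by the replicate number in the labels. The authors base-called reads with Dorado 0.5.1, aligned them to mm39 (GRCm39) with minimap2 and called peaks with MACS2 2.2.6 in each replicate alone against untreated cerebellum DNA. For each peak the deposited lists give the fold enrichment at the summit (a ratio), the −log10 of the p-value and q-value, a display score and the summit offset. The largest q-value was 0.0467. The deposited base-call counts came from modkit 0.2.8, for CpG sites within peaks, including sites where only another replicate had the peak. Shares per replicate count these sites too, unless own peaks are named. The deposited percent column gives modified over valid calls. All rows lie on the forward strand, and all 140428 sites were checked to be CpG on the reference. The methods state that masked repeats and blacklisted regions were removed, which was not checked here.

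The members, lists and tests were chosen with earlier results of these data known. Peaks overlapping by at least 1 bp were merged and assigned to GENCODE M39 protein-coding genes by midpoint. Per replicate, 69910, 104238 and 75624 base-calls were available, 1 per site in the median. A share is the number of calls of 1 state divided by that of 5hmC, 5mC and unmodified C together, with 95% exact binomial (Clopper-Pearson) intervals. Members and other genes were compared within replicates with a two-sided exact sign-flip permutation test instead of a Welch test as in the study. Gene place refers to the Ensembl canonical transcript. The genes named were those with a region shared by 2 replicates, the 10 with most regions, the 5 with the highest and the 5 with the lowest 5hmC share among those with 20 or more calls (only 8 had them), the cerebellum list and the 5 regions with the highest fold enrichment; others were named to account for every member with a region. Some genes are not reported here by name. Alternatives changed the calls per site, sites, weighting, peak thresholds, gene assignment, member list and replicates used. The software was pandas 2.3.3, numpy 2.4.6, pysam 0.24.0, scipy 1.17.1 and matplotlib 3.10.9 under Python 3.11.15, and the functions were tested on simulated data.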

Additional observations from a re-analysis of the deposited data

How the results depend on the processing

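Of 65 alternatives computed, 53 kept the direction of the difference, or a count within 1.5 times. These 53 include the median fold enrichment at a −log10 q of at least 2, where the difference was 0 and had no direction. Members with a region fell from 19 to 11 at a fold enrichment of at least 4, and numbered 9 to 19 when 1 replicate was left out, lowest without replicate 2. The share of all protein-coding genes was not computed under these settings, so these counts do not show a change particular to the members. Leaving out Foxn3 and Foxo3, chosen after seeing the data, turned the 5hmC difference to -1.83 percentage points, that in peaks per Mb to -1.50 and that in median fold enrichment to 0.305, which came from replicate 1 alone (0.916, against 6e-05 and 5e-05 in replicates 2 and 3). Restricted to genes under 50 kb, also chosen after seeing the data, the difference in peaks per Mb was -2.48, and among longer genes without Foxn3 and Foxo3 it was -1.14. Other settings kept the sign of the differences in base-call shares and moved them by over 1.5 times. The 5hmC difference of 2.24 points was 4.85 in own peaks, 5.62 at a fold enrichment of at least 4, 1.37 as a mean over sites, 1.48 without regions of extreme depth, and 1.26 without replicate 2 to 4.98 without replicate 3. That in 5mC, 2.55, was 13.2 at 3 calls per site, 4.51 in own peaks, 4.12 at a fold enrichment of at least 4, and 1.27 without replicate 1 to 5.11 without replicate 2. That in unmodified C, -4.79, was -16.4, -9.36 and -9.74 under the same 3 settings, and -7.47 without replicate 3. At 3 calls per site the 5mC differences were 22.5, 7.41 and 9.56 points in replicates 1, 2 and 3. Those in unmodified C were -30.9, -14.6 and -3.72 points. Most member sites had 1 call, so the values at 3 calls per site rest on few sites. The difference in peaks per Mb, 1.09, was 0.588 at a fold enrichment of at least 4 and 2.32 among genes of 50 kb or more. The 5hmC difference between regions near and far from a gene start was 11.1 points as reported, -9.73 at 2 kb, -19.4 at a fold enrichment of at least 4, and -2.43 to 26.2 with 1 replicate left out. The difference in fold enrichment was 0.0433 with means, and -0.0112 to 3e-05 with 1 replicate left out. The causes were not tested. No member site had 5 calls, so that minimum gave no value, nor did near and far regions at 3 calls or without replicate 2. Depth, with 1 call at most sites, limits every gene, Foxn3 and Foxo3 least.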

Other observations

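Other transcription factor genes of neural development, outside the families above, were read in the same way from a list of 40. A region was found in 12 of them (30%, against 20% of all protein-coding genes), with 76 regions in all. Tcf4 (chr18:69476427-69822150), a partner of proneural basic helix-loop-helix factors, held 32 regions in 346 kb, or 9.23 per 100 kb, close to the 9.34 of Foxn3. 5 of its regions held peaks of 2 replicates. 5hmC made up 38.0% of the 129 calls of replicate 1 (95% exact binomial interval 29.6 to 46.9), 37.3% of the 271 of replicate 2 (31.5 to 43.3) and 43.2% of the 192 of replicate 3 (36.1 to 50.6), and the intervals of the replicates overlap. Rora, a nuclear receptor required by Purkinje cells, held 20 regions in 734 kb, with 26.7% of 15, 23.4% of 111 and 36.1% of 83 calls as 5hmC.

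Among the others, Ebf1 held 6 regions, Meis1 and Tcf3 3 each, Tcf12 and Ebf3 2 each, and Neurod2, Hes5, Meis3 and Ebf2 1 each. Tcf3, which encodes the E proteins E12 and E47, had 18.9% of 37 calls in replicate 2 and 20.6% of 34 in replicate 3 as 5hmC. The 28 genes without a region included Atoh1 and Ptf1a, which specify granule cells and inhibitory neurons of the cerebellum, and all Zic genes.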
